A study of Homo sapiens with 6 samples.

Results

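The genes described here are 10 components of the Hippo pathway measured by RNA-sequencing in DU145 cells with and without TFEB overexpression. They are the transcription factors TEAD1, TEAD3 and TEAD4, the coactivators YAP1 and WWTR1, the kinases LATS1, LATS2 and TAOK1, and the target genes CYR61 and AMOTL2. All 10 were among the 10542 genes of the deposited table. They were picked by name with their values in this comparison already known, so their differences between the groups are given as a description without a test. The comparison asked which genes changed when TFEB was raised in a prostate cancer cell line.

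DU145 is a widely used cell line from a human prostate carcinoma. The 3 DU145-TFEB libraries came from cells given a lentivirus that overexpresses TFEB, a transcription factor that drives lysosomal and autophagy genes. The 3 DU145-vector libraries came from cells given a blank vector lentivirus, so both groups had been exposed to a lentivirus. The labels give no promoter for the transgene, no clone and no separate transductions for the replicates, so the spread between libraries may be technical.

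In the Hippo pathway, a chain of kinases ends in LATS1 and LATS2, which phosphorylate the coactivators YAP1 and WWTR1 (also called TAZ) and keep them out of the nucleus. When the kinases are less active, YAP1 and WWTR1 enter the nucleus and bind TEAD transcription factors, which recognise a GGAATG motif. Their target genes control growth and adhesion, and some of them, such as LATS2 and AMOTL2, feed back on the pathway as inhibitors. In epithelial cancers the pathway is known for coupling cell contact and cell shape to proliferation.

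TFEB, the targeted gene, was read at 6325, 6301 and 6036 normalized counts in the DU145-TFEB libraries and at 127, 124 and 125 in the DU145-vector libraries. A normalized count is the number of reads on a gene divided by 1 size factor per library. The log2 fold change of TFEB, on log2(normalized count + 1), was 5.62, with a standard error of 0.075. Of the 6 epithelial markers looked up, KRT8, KRT18 and KRT19 were listed. None of the 5 stromal, 4 haematopoietic or 2 endothelial markers was among the listed genes. Between 13999961 and 16511477 reads per library fell on the listed genes.

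The deposited table holds genes that had passed an adjusted p-value threshold on these same libraries, so nearly every listed gene differs between the groups. By limma with Benjamini-Hochberg adjustment, 52.4% of the listed genes had an adjusted p-value below 0.05 and were lower in DU145-TFEB, and 47.6% were higher. In 99.3% of the listed genes the 3 libraries of one group did not overlap with those of the other. With a log2 fold change beyond 1.5 in addition, 16.5% of the listed genes were lower and 2.54% were higher. The median log2 fold change over all listed genes was -0.36, and member values are also given relative to it.

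Fold changes in this table moved with the GC content of the transcripts. After each gene was centred on its mean log2 level over the libraries, the median of the 20% of genes highest in GC minus that of the 20% lowest was 0.98, 1.36 and 0.70 in DU145-TFEB replicates 1, 2 and 3. It was -0.92, -1.28 and -0.88 in DU145-vector replicates 1, 2 and 3. Replicate 2 stood furthest out in both groups. The split runs with the groups, so a difference in GC representation of the libraries and a difference between the cells cannot be told apart. Each member is therefore also given after the trend of log2 levels against GC content and length was removed from every library. That trend was fitted over the listed genes, nearly all of which differed between the groups. A value with the trend removed is thus a position against listed genes of like GC content and length. Its sign alone does not give a direction of expression, also where such a value is called lower or higher below.

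RefSeq promoter sequences of GRCh38.p14, from 250 bases before to 50 bases after an annotated start, were matched for 7 of the 10 members, with 11 promoters in all. They were searched on both strands for CACGTG, the core of the E-box that TFEB recognises, for the same core with a flanking T or A (TCACGTG or CACGTGA), and for the TEAD motif GGAATG, which reads CATTCC on the other strand. The 3 promoters that held a match are shown because they are those of a coactivator, an inhibitory kinase and an inhibitory target gene. Capitals mark the matches.
YAP1 (chr11:102110197-102110496, plus strand): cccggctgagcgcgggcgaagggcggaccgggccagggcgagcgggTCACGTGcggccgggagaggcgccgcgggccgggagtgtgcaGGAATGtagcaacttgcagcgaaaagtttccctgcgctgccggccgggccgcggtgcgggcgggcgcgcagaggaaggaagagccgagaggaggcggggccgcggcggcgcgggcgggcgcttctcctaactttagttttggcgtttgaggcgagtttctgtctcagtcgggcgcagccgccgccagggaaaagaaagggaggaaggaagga
LATS2 (chr13:21061537-21061836, minus strand): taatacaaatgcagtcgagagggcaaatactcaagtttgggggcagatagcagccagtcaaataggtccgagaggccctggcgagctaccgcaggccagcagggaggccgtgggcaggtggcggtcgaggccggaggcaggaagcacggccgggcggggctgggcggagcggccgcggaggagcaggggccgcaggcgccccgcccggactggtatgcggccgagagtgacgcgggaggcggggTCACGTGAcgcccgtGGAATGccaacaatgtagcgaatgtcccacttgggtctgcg
AMOTL2 (chr3:134374398-134374697, minus strand): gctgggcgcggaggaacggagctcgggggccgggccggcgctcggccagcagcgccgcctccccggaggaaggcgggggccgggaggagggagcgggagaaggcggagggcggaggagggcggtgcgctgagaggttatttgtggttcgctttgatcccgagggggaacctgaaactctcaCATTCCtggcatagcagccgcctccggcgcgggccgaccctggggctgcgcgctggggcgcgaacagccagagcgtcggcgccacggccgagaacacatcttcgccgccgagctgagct

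The YAP1 promoter held TCACGTG, with the CACGTG core beginning at offset -203 from the annotated start, and GGAATG at offset -162. In the LATS2 promoter the core lay in TCACGTGA and began at offset -5, followed by GGAATG at offset 10. One of the 2 AMOTL2 promoters held CATTCC, at offset -69. Of 35116 promoters of the same length, 7.26% held CACGTG, 3.71% held it with a flanking T or A, and 14.03% held the TEAD motif. The letters searched were not in the promoters of TEAD3, WWTR1, LATS1 or TAOK1 in these windows. A match is a stretch of letters, and binding at it was not measured in these libraries.

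TEAD1 was the member with the lowest fold change with the authors' scaling, while WWTR1 was the lowest with the GC and length trend removed. With the GC content of the longest transcript in that step TEAD1, at -1.38, was again the lowest. TEAD1, one of the DNA-binding partners of YAP1 and WWTR1 (chr11:12674591-12944483, plus strand, GRCh38), was read at 1523, 947 and 1952 normalized counts in DU145-TFEB replicates 1, 2 and 3. In DU145-vector it was read at 6998, 8244 and 6644. All DU145-TFEB libraries lay far below all DU145-vector libraries, and replicate 2 was the lowest of the first and the highest of the second. The means were 1474 ± 504 and 7295 ± 841 (SD, n = 3 each), 4.95-fold lower in DU145-TFEB. The log2 fold change was -2.36, with a standard error of 0.218, which placed TEAD1 179th from the lowest of 10542 genes. Relative to the median of the table it was -2.01, and with the GC and length trend removed it was -1.40. In these bulk libraries fewer cells with TEAD1 RNA and less of it per cell cannot be told apart.

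TEAD3 and TEAD4, which bind the same coactivators, lay slightly higher in DU145-TFEB with the authors' scaling. TEAD3 (chr6:35473597-35497076, minus strand) was read at 681, 651 and 655 against 557, 477 and 504 normalized counts in DU145-vector, with means of 662 ± 16.3 and 513 ± 40.6 (SD, n = 3 each). TEAD4 (chr12:2959330-3040673, plus strand) was read at 724, 947 and 641 against 636, 588 and 581, with means of 771 ± 159 and 602 ± 29.997 (SD, n = 3 each). The groups did not overlap for either gene, but for TEAD4 the lowest DU145-TFEB library and the highest DU145-vector library were only 4.51 counts apart. The log2 fold change of TEAD3 was 0.37, with a standard error of 0.093, and that of TEAD4 was 0.34, with a standard error of 0.137. Both directions depended on the treatment of GC content. TEAD3 transcripts have 60.3% GC and TEAD4 transcripts 62.7%, and with the trend removed their log2 fold changes were -0.66 and -0.82. The TEAD4 value rested in part on 1 library and was 0.18 without DU145-TFEB replicate 2.

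The coactivators YAP1 and WWTR1 were both lower in DU145-TFEB. YAP1 (chr11:102110461-102233423, plus strand) was read at 1321, 1121 and 1563 normalized counts in DU145-TFEB and at 3224, 3384 and 3142 in DU145-vector. WWTR1 (chr3:149517235-149736714, minus strand) was read at 842, 844 and 1008 against 2915, 3371 and 2711. The groups lay well apart for both genes, and the 3 DU145-vector libraries of YAP1 were within 1.08-fold of each other. The means of YAP1 were 1335 ± 221 and 3250 ± 123 (SD, n = 3 each), 2.43-fold lower in DU145-TFEB, with a log2 fold change of -1.30 and a standard error of 0.112. The means of WWTR1 were 898 ± 95.3 and 2999 ± 338 (SD, n = 3 each), 3.34-fold lower, with a log2 fold change of -1.74 and a standard error of 0.105. WWTR1 thus passed the fold-change cutoff of 1.5 and YAP1 did not.

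With the GC and length trend removed, YAP1 lay at -0.84 and WWTR1 at -1.59 on the log2 scale. The WWTR1 value depended on how GC content was taken, because all its transcripts together have 49.0% GC and its longest transcript has 40.9%. With the GC content of the longest transcript, WWTR1 lay at -0.78 and YAP1 at -0.68. Antisense transcripts share 9.45% of the exon bases of WWTR1 (WWTR1-AS1) and 9.97% of those of YAP1 (AP000942.2). The strand setting of the counting is not given in the sources used here, so reads of those stretches cannot be assigned to one gene.

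**Figure D1:**
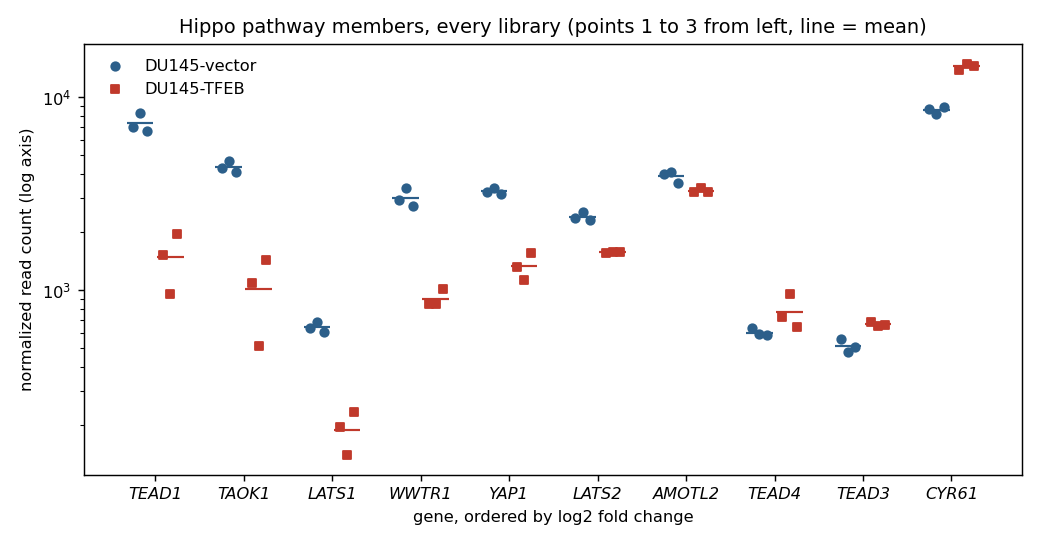
Normalized read count (log axis) of the 10 members in the 3 DU145-vector (circles) and 3 DU145-TFEB (squares) libraries, with the group means as lines, ordered by log2 fold change from TEAD1 to CYR61. TEAD1 sits at 947 to 1952 in DU145-TFEB and at 6644 to 8244 in DU145-vector, while the groups of TEAD3, TEAD4 and AMOTL2 lie close together.

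The makeup of the TEAD family differed between the groups. Levels were compared between genes per kilobase of exon, as normalized counts divided by gene length. TEAD1 made up 50.5%, 57.2% and 50.3% of the summed level per kilobase of TEAD1, TEAD2, TEAD3 and TEAD4 in DU145-vector. In DU145-TFEB it made up 14.9%, 8.63% and 18.8%. The mean share was thus 52.7% ± 3.91 in DU145-vector and 14.1% ± 5.14 in DU145-TFEB (SD, n = 3 each). TEAD4 took the largest mean share in DU145-TFEB, 33.0% ± 5.60 against 19.7% ± 1.17, followed by TEAD2 at 31.6% ± 0.870 against 15.1% ± 1.87 and TEAD3 at 21.3% ± 1.23 against 12.5% ± 1.24 (SD, n = 3 each). The shares of TEAD4 and TEAD2 in DU145-TFEB overlapped between libraries.

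**Figure D2:**
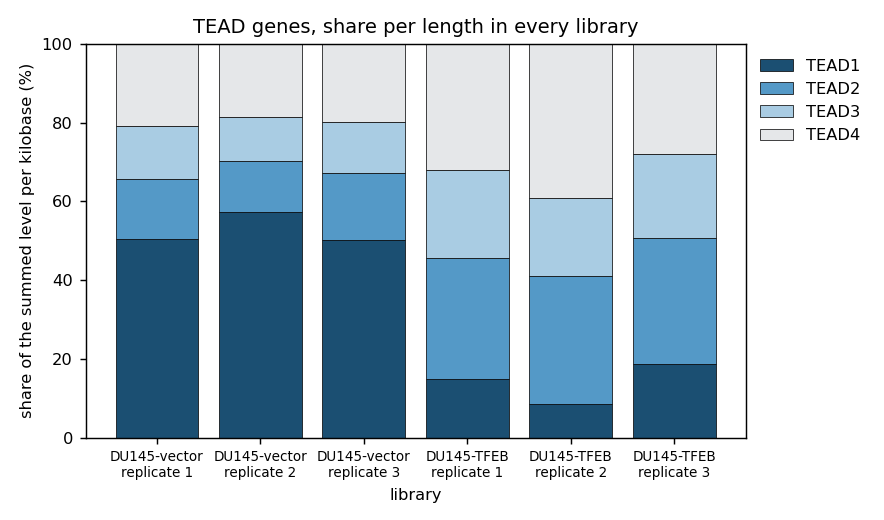
Share of the summed level per kilobase (%) taken by TEAD1, TEAD2, TEAD3 and TEAD4 in each library, as stacked bars that add up to the whole family. TEAD1 takes at least 50.3% in every DU145-vector library and at most 18.8% in every DU145-TFEB library.

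The total over the 4 TEAD genes differed less than TEAD1 alone. It was 1345 ± 58.7 normalized counts per kilobase in DU145-vector and 1024 ± 38.7 in DU145-TFEB (SD, n = 3 each), 1.31-fold lower. Without TEAD1, the sum over TEAD2, TEAD3 and TEAD4 was 635 ± 33.2 in DU145-vector and 881 ± 83.7 in DU145-TFEB (SD, n = 3 each). These sums and shares were taken with the authors' scaling, and TEAD1 is the only TEAD gene under 50% GC. With the trend removed, TEAD1 was still the lowest of the family, at a log2 fold change of -1.40 against -0.82 for TEAD4, -0.66 for TEAD3 and -0.30 for TEAD2.

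YAP1 and WWTR1 together had 873 ± 59.7 normalized counts per kilobase in DU145-vector and 319 ± 45.5 in DU145-TFEB (SD, n = 3 each), 2.74-fold lower. YAP1 was the larger part in both groups. It made up 59.2% ± 1.77 of the pair in DU145-vector and 66.4% ± 2.09 in DU145-TFEB (SD, n = 3 each), and the libraries of the groups did not overlap in this share. These values were taken with the authors' scaling. With the trend removed by the GC content of the longest transcript, the log2 fold changes of YAP1 and WWTR1 were close, at -0.68 and -0.78.

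Among the kinases, TAOK1 differed most with the authors' scaling. TAOK1 (chr17:29390464-29551904, plus strand), a kinase upstream of LATS1 and LATS2, was read at 1092, 515 and 1436 normalized counts in DU145-TFEB and at 4286, 4684 and 4100 in DU145-vector. DU145-TFEB replicate 2 was far below the other libraries of its group, which spanned 2.79-fold, while the DU145-vector libraries spanned 1.14-fold. The means were 1014 ± 465 and 4357 ± 299 (SD, n = 3 each), 4.29-fold lower in DU145-TFEB. The log2 fold change was -2.22, with a standard error of 0.299, the 280th lowest of the table. It was -1.80 without DU145-TFEB replicate 2 and -1.24 with the GC and length trend removed. The long exons of TAOK1, 16980 bases in all, hold MIR4523 on the same strand and share 1.02% of their bases with AC068025.1 on the other strand.

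LATS1 and LATS2, the kinases that phosphorylate YAP1 and WWTR1, differed in the size of their change. LATS1 (chr6:149658153-149718256, minus strand) was read at 196, 139 and 233 normalized counts in DU145-TFEB and at 632, 685 and 605 in DU145-vector. Its means were 189 ± 47.0 and 641 ± 40.5 (SD, n = 3 each), 3.39-fold lower, with a log2 fold change of -1.78 and a standard error of 0.174. LATS1 had the fewest reads of the members, 153 in its lowest library, and shares 4.72% of its exon bases with the antisense gene AL358852.1. LATS2 (chr13:20973032-21061547, minus strand) was read at 1553, 1576 and 1567 against 2356, 2530 and 2310. The DU145-TFEB libraries of LATS2 lay within 1.02-fold of each other and below every DU145-vector library. Its means were 1565 ± 11.5 and 2399 ± 116 (SD, n = 3 each), 1.53-fold lower, with a log2 fold change of -0.61 and a standard error of 0.069.

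The order of the pair turned with the GC and length trend removed. LATS1, with 42.1% GC, then lay at -0.82, and LATS2, with 53.0% GC, at -1.20, close to TAOK1 at -1.24. With the GC content of the longest transcript LATS2 lay at -1.15 and TAOK1 at -1.14. Per kilobase, LATS1 made up 14.7% ± 0.212 of the pair in DU145-vector and 7.22% ± 1.69 in DU145-TFEB with the authors' scaling (SD, n = 3 each), so LATS2 was the larger part in both. The sum of the pair was 504 ± 25.4 normalized counts per kilobase in DU145-vector and 303 ± 4.75 in DU145-TFEB (SD, n = 3 each), 1.67-fold lower.

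The target genes CYR61 and AMOTL2 did not move together. CYR61 (chr1:85580761-85583962, plus strand), a secreted matrix protein and a widely used readout of YAP1 activity, was read at 13776, 14895 and 14480 normalized counts in DU145-TFEB and at 8635, 8190 and 8892 in DU145-vector. It was the most abundant member and was higher in every DU145-TFEB library. Its means were 14383 ± 566 and 8572 ± 355 (SD, n = 3 each), 1.68-fold higher, with a log2 fold change of 0.75 and a standard error of 0.065. With the GC and length trend removed this difference was -0.02, and it was 0.21 with the GC content of the longest transcript, so its direction was not stable.

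AMOTL2 (chr3:134355874-134375479, minus strand), a junction protein that binds YAP1 and holds it outside the nucleus, was read at 3212, 3381 and 3217 normalized counts in DU145-TFEB and at 3983, 4109 and 3602 in DU145-vector. Its means were 3270 ± 96.3 and 3898 ± 264 (SD, n = 3 each), 1.19-fold lower, with a log2 fold change of -0.25 and a standard error of 0.072. This was less than the shift of the whole table, and relative to the median of all listed genes AMOTL2 lay at 0.10. With the GC and length trend removed it lay at -1.25. AMOTL2 transcripts have 59.6% GC, and listed genes with 55% to 60% GC had a median log2 fold change of 0.58. The pseudogene RPL39P5 shares 3.13% of the exon bases of AMOTL2 on the same strand.

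Over the 10 members, 4 were lower with a log2 fold change beyond 1.5, which were TEAD1, TAOK1, LATS1 and WWTR1, and 0 were higher. For all listed genes these shares were 16.5% and 2.54%. The number of lower members was 1, WWTR1, with the GC and length trend removed, 0 with the GC content of the longest transcript in that step, and 2 with the median log2 fold change set to 0. Since the members were picked with these values known, nothing is read from the count. By sign, 7 members were lower and 3 were higher, beside 52.4% lower and 47.6% higher in the table. In all 10 the groups did not overlap, as in 99.3% of the listed genes. The median log2 fold change of the members was -0.96, against -0.36 over the table. With the GC and length trend removed all 10 had negative values, with a median of -1.02 against -0.32 over the table, and 9 lay below the table's median. The table's median was itself negative there, so most listed genes were lower in that fit too. In the 7 lower members, among them LATS2 with 53.0% GC and AMOTL2 with 59.6% GC, the highest DU145-vector library was replicate 2. In 4 of them, TEAD1, YAP1, LATS1 and TAOK1, the lowest DU145-TFEB library was replicate 2 as well. Replicate 2 stood furthest out in GC content in both groups. The share of all listed genes with this order of libraries was not counted, and nothing is read from these counts.

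**Figure D3:**
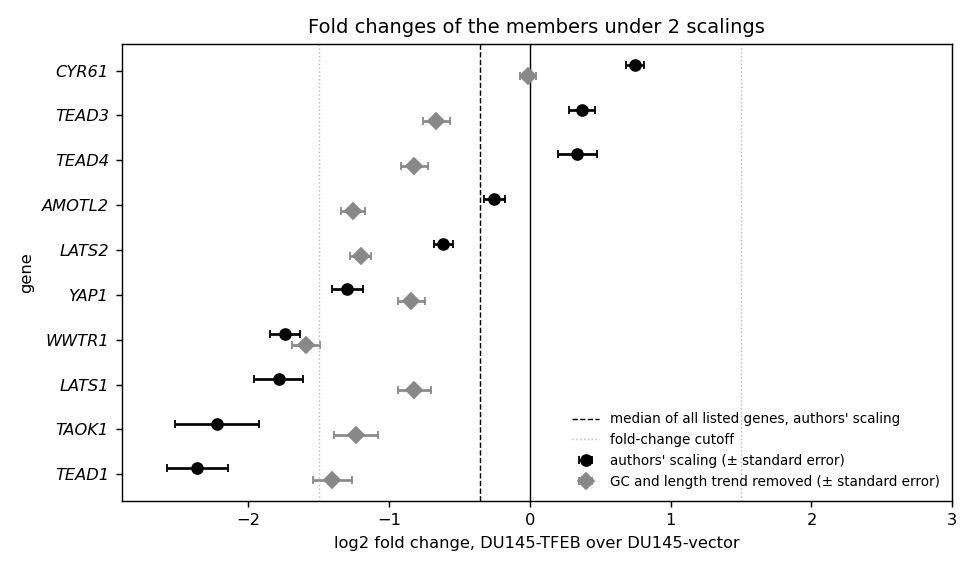
Log2 fold change of DU145-TFEB over DU145-vector for each member with the authors' scaling (circles) and with the GC and length trend removed (diamonds), with standard errors from limma, the median of all listed genes as a dashed line and the cutoff of 1.5 as dotted lines. TEAD1 moves from -2.36 to -1.40, while TEAD3 moves from 0.37 to -0.66 and AMOTL2 from -0.25 to -1.25.

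Set against listed genes of like GC content, in bins of 5 percentage points, 9 of the 10 members were below the lower quartile of their bin. CYR61, at 0.75, was above the upper quartile of its bin, 0.69. LATS2, in the same bin as CYR61, was at -0.61 where the bin's median was 0.47. TEAD1, TAOK1 and LATS1 were in a bin with a median of -1.15 and a lower quartile of -1.62, and lay at -2.36, -2.22 and -1.78. By construction 25% of the listed genes of a bin lie below its lower quartile, and this count too is a description of chosen genes.

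**Figure D4:**
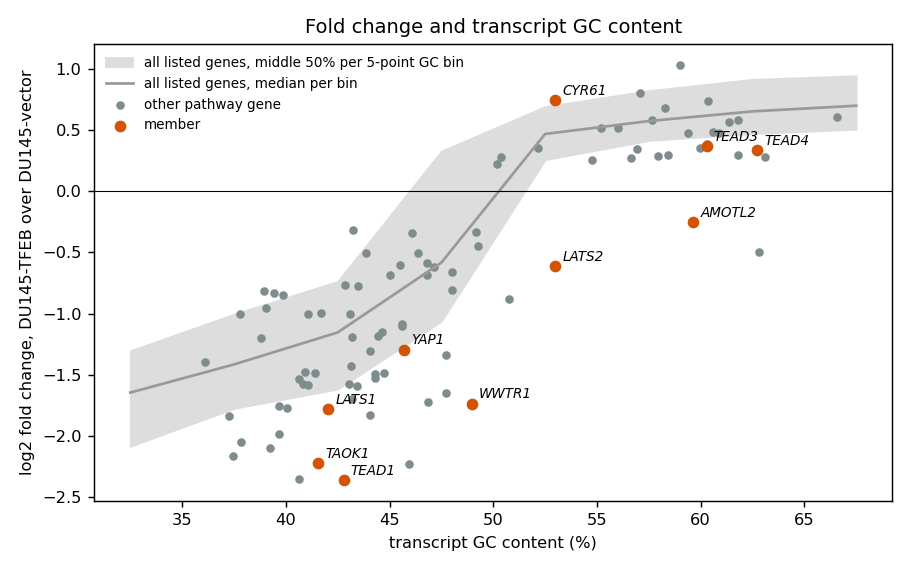
Log2 fold change against transcript GC content (%) for the members (labelled) and the other pathway genes, over the median (line) and the middle 50% (band) of all listed genes per bin. The band rises with GC content, and the members lie below it except CYR61.

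With the authors' scaling, the order of the members by level changed between the groups. Per kilobase in DU145-vector, CYR61 was highest at 3492 ± 145 normalized counts, followed by TEAD1 at 710 ± 81.8, AMOTL2 at 651 ± 44.1 and YAP1 at 516 ± 19.6 (SD, n = 3 each). Below these came LATS2 at 430 ± 20.8, WWTR1 at 356 ± 40.1, TEAD4 at 265 ± 13.2, TAOK1 at 257 ± 17.6 and TEAD3 at 168 ± 13.3 (SD, n = 3 each). LATS1 was lowest at 74.1 ± 4.68. The libraries of TEAD1 and AMOTL2 overlapped in this order, as did those of TEAD4 and TAOK1.

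In DU145-TFEB, CYR61 was again highest, at 5859 ± 230 normalized counts per kilobase, followed by AMOTL2 at 546 ± 16.1 and TEAD4 at 339 ± 69.8 (SD, n = 3 each). LATS2 at 281 ± 2.07, TEAD3 at 217 ± 5.34, YAP1 at 212 ± 35.1, TEAD1 at 143 ± 49.0 and WWTR1 at 107 ± 11.3 came next (SD, n = 3 each). TAOK1 at 59.7 ± 27.4 and LATS1 at 21.9 ± 5.44 were lowest. TEAD1 went from the second place of the members to the seventh. It has 42.8% GC. The members that ranked above TEAD1 in DU145-TFEB but not in DU145-vector were AMOTL2, TEAD3, TEAD4, LATS2 and YAP1. AMOTL2, TEAD3 and TEAD4 have 59.6% to 62.7% GC, LATS2 has 53.0% and YAP1 has 45.7%. The order was not taken with the GC and length trend removed. Neighbours whose libraries overlapped were TEAD4 and LATS2, TEAD3 and YAP1, YAP1 and TEAD1, and TEAD1 and WWTR1.

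The genes most like TEAD1 and TAOK1 over the 6 libraries were looked up among 8616 other listed genes whose mean reached 100 normalized counts. Likeness was the root mean square difference of log2 levels, each gene centred on its mean, so a smaller value is a closer pattern. Nearest to TEAD1 were SHOC2 at 0.029, ZBTB38 at 0.048 and ZNF518B at 0.054. Nearest to TAOK1 were LTN1 at 0.038, JMJD1C at 0.048 and NPAT at 0.053. These 6 genes have between 37.3% and 42.8% GC. TEAD1 and TAOK1 differed by 0.161 from each other, and TAOK1 was only the 137th nearest gene to TEAD1.

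The wider pathway was described with 7 lists, drawn up from general knowledge with earlier results of these data known, of which 93 of 130 genes were listed in the table. By limma with adjusted p-values below 0.05 over all listed genes, 65 were lower in DU145-TFEB and 28 were higher, beside 52.4% and 47.6% of all listed genes. Past the fold-change cutoff as well, 23 were lower, which is 24.7% of the 93 against 16.5% of the table, and 0 were higher. This difference from the table did not hold with the GC and length trend removed, where 1 of the 93 was lower past both cutoffs beside 399 of the 10542 listed genes. The number was 13 with DESeq2, beside 1078 listed genes, and 8 with the median log2 fold change set to 0, beside 832. With the authors' scaling, their median log2 fold change was -0.81.

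In the core kinase cassette, 10 of 12 listed genes were lower and 2 were higher, with a median log2 fold change of -1.07. TAOK1, LATS1 and MOB1B at -2.05, an activator of the LATS kinases, passed both cutoffs. Its close relative MOB1A lay at -1.48 and WWC2, a scaffold of the LATS kinases, at -1.43. The TAOK1 paralogs differed with the authors' scaling, with TAOK3 at -1.19 and TAOK2 at 0.48. With the GC and length trend removed TAOK3 lay at -0.25 and TAOK2 at -0.29. The kinases STK3 and STK4, which activate LATS1 and LATS2, lay at -0.96 and -0.77, and their scaffold SAV1 at -0.83. With the GC and length trend removed STK3 lay at 0.15, STK4 at 0.14 and SAV1 at 0.15. With the GC content of the longest transcript in that step they lay at 0.15, -0.002 and -0.18. NF2, the tumour suppressor that recruits the LATS kinases to the membrane, was higher at 0.25 with the authors' scaling. With the trend removed NF2 lay at -0.47.

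Of the coactivators and TEAD factors, 6 of 10 named genes were listed. With the authors' scaling TEAD1, WWTR1 and YAP1 were lower, and TEAD2 at 0.68, TEAD3 and TEAD4 were higher, with a median of -0.48. Among the MAP4K and other kinases, 7 of 16 were lower and 9 were higher with that scaling, with a median of 0.29. With the GC and length trend removed 14 of the 16 were lower, as were most listed genes. MAP4K5 at -2.10 and STK38L at -1.77 were the lowest and MAP4K1 at 1.04 and MARK4 at 0.74 the highest, and MAP4K1 had as few as 17 reads in a library.

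In the list of YAP1 and WWTR1 inhibitors, which also holds the LATS inhibitor LIMD1, 11 of 12 genes were lower and 1 was higher, with a median of -0.55, and 1 was lower past the fold-change cutoff. This was PTPN14, a phosphatase that binds YAP1, at -1.65. BTRC, part of a ubiquitin ligase, lay at -1.11, and the highest were AMOTL2 at -0.25 and LIMD1 at 0.28, the higher gene of the list. In the STRIPAK complex, which holds the phosphatase that acts on the upstream kinases, 11 of 13 were lower, with a median of -1.01. STRN at -1.99 and STRN3 at -1.60 were the lowest, and PPP2R1A at 0.51 and STRN4 at 0.58 the highest. Of the junction and polarity inputs, 14 of 21 were lower, 9 of them past both cutoffs, with a median of -1.31. The lowest were MPP5 at -2.35, a polarity scaffold, and ARHGAP29 at -2.16, and the highest were LLGL1 at 0.57 and SCRIB at 0.61. These counts stand beside 52.4% of all listed genes lower and 16.5% lower past both cutoffs. With the GC and length trend removed, WWTR1 was the only pathway gene past both cutoffs, so none of the genes named here passed.

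With the authors' scaling, the YAP1 and WWTR1 target genes did not move as a block. Of 17 listed, 12 were lower and 5 were higher, with a median of -0.66, and DOCK5 at -2.23 and PTPN14 at -1.65 passed both cutoffs. ASAP1 at -1.49, NT5E at -1.19, F3 at -1.15, RBMS3 at -1.0, TGFB2 at -0.81, MYOF at -0.69 and CRIM1 at -0.66 were lower by less. ANKRD1, like CYR61 a standard readout of YAP1 activity, was only slightly lower at -0.32, less than the median of the table. With AMOTL2 and LATS2 described above, these make up the lower genes. The higher genes were ARHGEF17 at 0.30, NUAK2 at 0.34, AXL at 0.58, CYR61 at 0.75 and GADD45A at 0.81. These 5 genes have between 53.0% and 61.8% GC. With the GC and length trend removed they lay at -0.43, -0.58, -0.35, -0.02 and -0.23 in the same order. With the GC content of the longest transcript in that step, CYR61 was 0.21 and GADD45A 0.12. With the trend removed 16 of the 17 target genes were lower, with a median of -0.49 against -0.32 over the table. The other was TGFB2, which went from -0.81 to 0.16, and ANKRD1 lay at -0.17. With the authors' scaling ANKRD1, at 43.3% GC, lay above the upper quartile of its GC bin, -0.74.

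**Figure D5:**
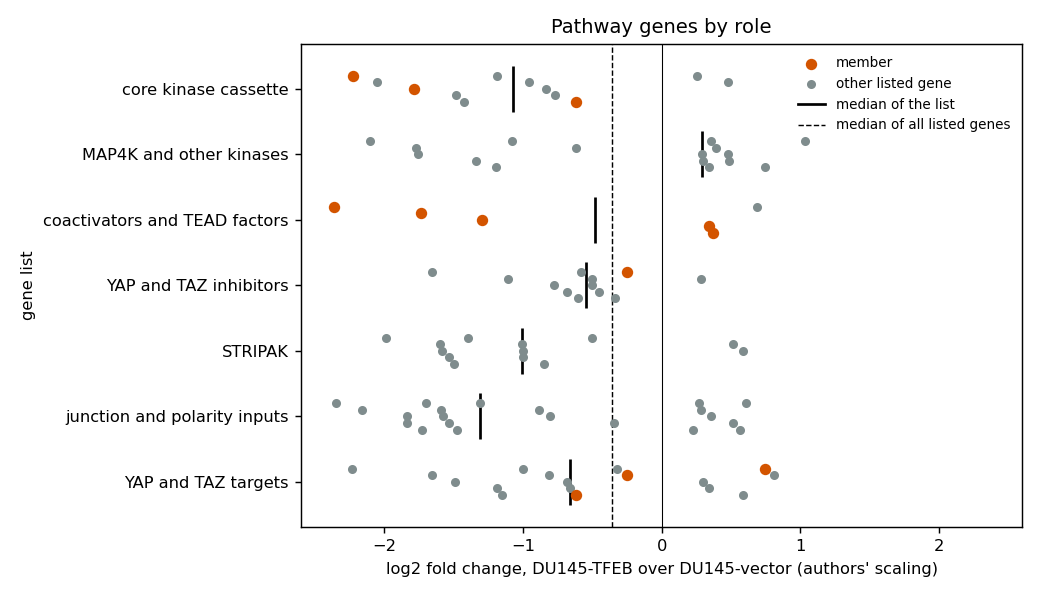
Log2 fold change of DU145-TFEB over DU145-vector for every listed gene of the 7 pathway lists, with members in orange, the median of each list as a vertical line and the median of all listed genes as a dashed line. The medians run from -1.31 for the junction and polarity inputs to 0.29 for the MAP4K and other kinases.

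The direction of the pathway genes followed their GC content. All 61 genes under 50% GC were lower and had a median of -1.31 on the log2 fold change scale, beside 88.0% of the listed genes of that range with a median of -1.08. Of the 32 genes at or over 50% GC, 4 were lower and 28 were higher, with a median of 0.36, beside 8.90% lower and a median of 0.58. The lower genes of this range included the members LATS2 and AMOTL2. With the GC and length trend removed, 80 of the 93 pathway genes were lower, with a median of -0.49 against -0.32 over the table. The table's median was itself negative in that fit, so most listed genes were lower there too. Their exact share was not counted, and nothing is read from the 80.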

How the data were processed

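The 6 libraries were assigned to groups and replicates from the sample labels. The labels name the molecule as polyA RNA, and the methods name the NEBNext Ultra kit for the libraries and DESeq2 for the comparison. The submitters' processing notes name CASAVA 1.8, HISAT2 2.1.0, edgeR and the builds GRCh38 and hg38. The counting program and its strand setting are not given in the sources used here. Gene positions equalled GENCODE 29 for 10531 of 10542 genes and for all 10 members. The authors deposited a normalized signal, each gene's read count divided by 1 size factor per library (0.950 to 1.10). Dividing by the smallest step returned whole reads for 100% of values within 0.01 reads. The authors also deposited group means, log2 fold changes, p-values and adjusted p-values of their own comparison, which were not used.

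In the analysis, log2(normalized count + 1) was fitted with limma 3.58.1 (mean-variance trend, R 4.3.3) over all 10542 genes, with Benjamini-Hochberg adjustment and cutoffs of 0.05 for the adjusted p-value and 1.5 for the log2 fold change in either direction. No block was used. The trend against GC content and length was removed per library by loess with a span of 0.5, for the 10537 genes with a GC value. Alternatives were DESeq2 1.42.0 and edgeR 4.0.16 on the recovered reads, other scalings, other pseudocounts (0.5 and 5), a minimum of 10 reads in every library and left-out replicates. Scripts were tested on simulated data. The members and lists were chosen with earlier results of these data known. The text names every member with its libraries, every listed gene of the core kinase, coactivator and target lists, the 2 highest and 2 lowest of each other list, and the 3 genes nearest to TEAD1 and to TAOK1. Depth was 13999961 to 16511477 reads on listed genes. Genes outside the deposited table were not analysed here, and some genes of the lists are not reported here.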

Additional observations from a re-analysis of the deposited data

How the results depend on the processing

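Of 200 member values over 20 alternatives each, 176 kept their direction and their side of the cutoffs, 15 kept only the direction and 9 turned. Of the 10 members, 4 were past both cutoffs and lower, and leaving out 1 library at a time gave 4 to 4. This number was 1 with the GC and length trend removed, with or without the replicate block (WWTR1), 0 with the GC content of the longest transcript, and 2 with the median log2 fold change set to 0 (TEAD1 and TAOK1). With the trend removed, TEAD3 turned to -0.66, TEAD4 to -0.82 and CYR61 to -0.016, with the same values under the block. With the GC content of the longest transcript TEAD3 was -0.66 and TEAD4 -0.77, and with the median set to 0 AMOTL2 was 0.10. WWTR1 was -1.4999 with DESeq2 and -1.497 with its size factors, and LATS1 was -1.32 with quantile normalization. Of the pathway genes, 23 were past both cutoffs and lower, and leaving out 1 library gave 18 to 28, with 17 without replicate 2 of both groups. The number was 13 with DESeq2, its size factors or quantile normalization, and 8 with the median set to 0. It was 1 in each fit with the trend removed, but not the same gene. With the GC content of all transcripts it was WWTR1. With that of the longest transcript it was SFN, at -1.50035, just past the cutoff. At an absolute log2 fold change above 1 it was 41, with 1 higher (MAP4K1) where the main cutoff gave 0. Leaving out replicate 2 of both groups, setting the median to 0 and the GC content of the longest transcript were chosen after seeing the data.

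Over all listed genes, 1741 were past both cutoffs and lower and 268 higher, so that 86.7% of the calls were lower. This share was 70.3% with DESeq2 size factors, 69.0% with DESeq2, 58.9% with quantile normalization, 57.8% with the median set to 0, 72.4% with the trend removed and 93.7% with at least 10 reads in every library. The lower count was 1105, 1078, 808, 832, 399 and 1327 in the same order, and 1103 without replicate 2 of both groups. The higher count was 466, 484, 563, 607, 152 and 89. Deviations of same-numbered libraries from their group means had correlations of -0.02, -0.25 and -0.14. Differently numbered libraries were not compared, so these values do not settle whether the replicate numbers pair the libraries. The replicate block gave 4 members and 23 pathway genes. The causes of these differences were not tested. Size factors taken anew rested on the listed genes alone, and 3 libraries per group limit the precision. The lowest depth of a member was 153 reads.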
